A study of Mus musculus with 17 samples.

Results

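The comparison concerns Tet2 dose among mouse leukaemias that all carry the same PU.1 enhancer lesion, and it used 5 of the 17 libraries of the series. They were chosen by genotype alone. The 3 libraries labelled UREΔ/+;Tet2-/- have 1 deleted copy of the URE, an upstream regulatory element of the Spi1 gene, and no intact copy of Tet2. The 2 libraries labelled UREΔ/+;Tet2+/- have the same URE deletion and 1 intact copy of Tet2. Both groups carry the disease state AML (acute myeloid leukaemia) and are called the compound Tet2-/- and compound Tet2+/- libraries below. The other 12 libraries are labelled Normal and comprise 3 each of URE+/+;Tet2-/-, URE+/+;Tet2+/-, UREΔ/+;Tet2+/+ and URE+/+;Tet2+/+. All cells were sorted from bone marrow as positive for cKit, the receptor of stem cell factor and a mark of stem and progenitor cells, and as negative for lymphoid and erythroid surface markers. The series describes its controls as matched for age, while the strain, the sex and the age of each mouse, and the kind of Tet2 allele, are unstated in the labels. Nothing in the labels says that libraries of a group came from separate mice, so part of the spread behind the p-values may be technical. That spread was estimated within genotypes over all 17 libraries, 12 of them Normal, and not from the compound libraries alone.

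TET2 is an enzyme that oxidises the methyl group of methylated cytosine in CpG dinucleotides, which leads to loss of methylation at enhancers and promoters, and TET1 and TET3 carry out the same reaction. It needs 2-oxoglutarate, which the isocitrate dehydrogenases IDH1 and IDH2 make. TET2 is often mutated in the blood cells of older people without leukaemia, a state called clonal haematopoiesis, and in myeloid leukaemia. PU.1, the product of Spi1, is the transcription factor that directs myeloid and B cell development. A fall in its level through loss of its distal enhancer is known to cause myeloid leukaemia in mice.

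RNA was measured as read counts per gene. Gene counts summed to 23.5, 38.3 and 37.5 M in compound Tet2-/- libraries 1, 2 and 3, against 29.6 and 37.7 M in compound Tet2+/- libraries 1 and 2, and values below keep this order of libraries. Levels are CPM, counts per 1 M of library size scaled by trimmed mean (TMM), and a log2 fold change is compound Tet2-/- over compound Tet2+/-, with its standard error (SE). Kit, the gene of the sorted receptor, was added as a check after values were seen and had 117, 151.5 and 135 CPM in the compound Tet2-/- libraries, against 170.4 and 159 CPM in the compound Tet2+/- libraries. These levels lie within the 99.97 to 187 CPM of the Normal libraries. In bulk RNA of sorted cells, fewer cells of a type and less RNA per cell cannot be told apart, which holds for every level given here.

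The 5 leukaemias did not group by Tet2 genotype. The closest pair were compound Tet2-/- libraries 2 and 3, with Pearson's r of 0.964 across the log2 CPM of all genes tested. Of the 11830 genes that averaged 1 log2 CPM or more in the leukaemias, 830 lay more than 2-fold apart between them. The pairs next in number of such genes crossed the genotypes. Compound Tet2-/- library 2 and compound Tet2+/- library 1 had r of 0.942 and 2380 genes more than 2-fold apart, and compound Tet2-/- library 3 and compound Tet2+/- library 1 had 0.939 and 2442. Compound Tet2-/- library 1 differed by more than 2-fold from libraries 2 and 3 of its own genotype at 3631 and 3193 genes, more than from compound Tet2+/- library 1 (2699 genes). The 2 compound Tet2+/- libraries were the farthest pair of all, with r of 0.878 and 3890 genes more than 2-fold apart. Among Normal libraries, pairs of 1 genotype had 214 to 2190 such genes, and pairs of different genotypes had 258 to 2571. The mean r was 0.911 within the compound genotypes and 0.918 between them. These correlations are across genes, which are not independent replicates, and are given as a description.

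**Figure D1:**
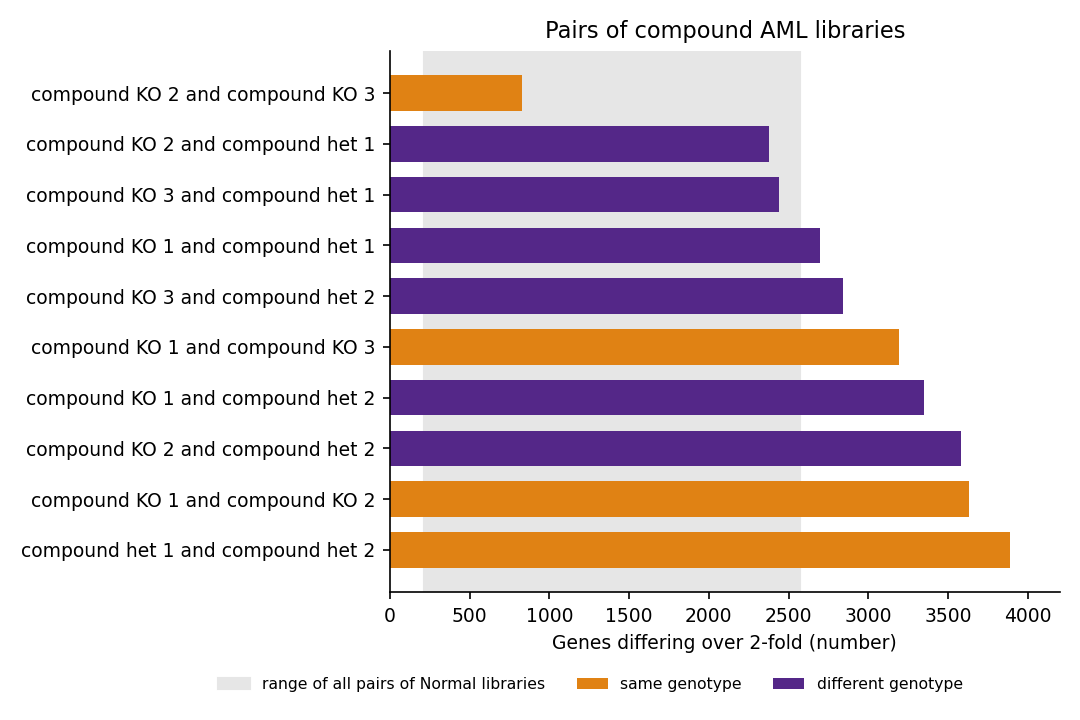
Bars give the number of genes (of 11830) more than 2-fold apart for each pair of compound Tet2-/- (KO) and compound Tet2+/- (het) libraries, orange for the same and purple for different genotypes, with the range of all Normal pairs in grey. The fewest are 830, between compound Tet2-/- libraries 2 and 3, and the most are 3890, between the 2 compound Tet2+/- libraries.

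Other properties of the libraries cross the genotypes as well. From 60 to 160 Mb of chromosome 2 (GRCm38), 275 genes had a median level of 101%, 51.6% and 51.6% of the Normal mean, relative to the other autosomes, in the compound Tet2-/- libraries, against 52.8% and 99.1% in the compound Tet2+/- libraries. The Normal libraries lay between 98.2% and 104%. Spi1 and Dnmt3b both lie in this interval. Of the 275 genes, 8 lay higher and 5 lower in the compound Tet2-/- libraries with no overlap. These are smaller shares than the 7.34% higher and 9.68% lower over all genes tested. Of the same 275 genes, 144 had a positive and 131 a negative fold change. Xist, the RNA that coats the inactive X of female cells, was found in compound Tet2-/- libraries 1 and 3 and in compound Tet2+/- library 2, while compound Tet2-/- library 2 and compound Tet2+/- library 1 had neither Xist above 100 CPM nor Y-linked transcripts above 10 CPM. Mitochondrial transcripts made up 27.6%, 40.7% and 44.5% of gene counts in the compound Tet2-/- libraries, against 26.7% and 32.1% in the compound Tet2+/- libraries. Sample titles are numbered 1 to 17, and numbers up to 7 hold library 1 of each compound genotype while the higher ones hold the others. The meaning of the numbers is not given, and the sign of the difference between genotypes was the same in both ranges for 42.7% of genes.

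Spi1 had 98.6, 7.83 and 12.25 CPM in the compound Tet2-/- libraries, against 21.6 and 34.9 CPM in the compound Tet2+/- libraries. Compound Tet2-/- library 1 lay within the Normal range of 45.3 to 137 CPM and the other four lay below it, so the groups overlap. The difference did not pass (log2 fold change 0.48 ± 0.82, adjusted p = 0.853, edgeR), and it was 2.19 (log2) within the low title numbers and -1.83 within the high ones. Tet2 itself had 112, 113 and 176 CPM in the compound Tet2-/- libraries, against 234 and 156 CPM in the compound Tet2+/- libraries. Compound Tet2-/- library 3 lies above compound Tet2+/- library 2, so these groups overlap too. The log2 fold change of Tet2 was -0.55 ± 0.25 (edgeR, unadjusted p = 0.0431, adjusted p = 0.41), and the counts cover the whole gene, so they do not check the part that the allele removes. In the Normal libraries Tet2 averaged 82.5 ± 3.30 CPM in URE+/+;Tet2-/- and 105 ± 11.1 CPM in URE+/+;Tet2+/- (SD, n = 3 each), a log2 fold change of -0.35 ± 0.22.

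None of the 29 tested genes of DNA methylation and demethylation passed. Their median log2 fold change was -0.23, against -0.09 over all 19951 genes tested. Among the enzymes that do the same work as TET2, Tet1 had 21.3, 11.2 and 10.2 CPM in the compound Tet2-/- libraries, against 2.60 and 32.1 CPM in the compound Tet2+/- libraries. Tet3 had 107, 57.3 and 64.9 CPM in the compound Tet2-/- libraries, against 83.6 and 82.3 CPM in the compound Tet2+/- libraries. Neither set of values separates the genotypes, and compound Tet2+/- library 1 alone has a Tet1 level far under the others. Dnmt1, which copies methylation after replication, had 372, 121 and 228.5 CPM in the compound Tet2-/- libraries, against 200.3 and 248 CPM in the compound Tet2+/- libraries. Dnmt3a, which sets new methylation and is itself often mutated in clonal haematopoiesis, had 85.15, 22.3 and 20.1 CPM in the compound Tet2-/- libraries, against 57.95 and 52.5 CPM in the compound Tet2+/- libraries. Dnmt3b, the related enzyme, had 23.04, 6.48 and 5.41 CPM in the compound Tet2-/- libraries, against 4.36 and 39.3 CPM in the compound Tet2+/- libraries. It was lowest in the 3 libraries whose chromosome 2 interval stood near 52%, and the part of that interval in its level was not tested. Dnmt3l, a cofactor of both, stayed at or under 1.69 CPM in all 5 libraries.

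Of this list, 3 of 29 genes did not overlap between the genotypes, a smaller share than the 17% of all genes tested, and they are given as values only. Idh1 had 49.0, 53.1 and 58.5 CPM in the compound Tet2-/- libraries, against 33.1 and 29.5 CPM in the compound Tet2+/- libraries (log2 fold change 0.77 ± 0.29, adjusted p = 0.335, edgeR). All 5 values lie within the Normal range of 28.5 to 62.9 CPM. Tdg, the glycosylase that removes oxidised methylcytosine, had 33.9, 25.75 and 23.6 CPM in the compound Tet2-/- libraries, against 22.5 and 19.9 CPM in the compound Tet2+/- libraries. Uhrf2, a reader of oxidised methylcytosine, had 37.0, 59.0 and 59.6 CPM in the compound Tet2-/- libraries, against 63.35 and 90.1 CPM in the compound Tet2+/- libraries. All 3 genes fell short of the threshold.

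Across the transcriptome, few differences between the compound genotypes exceeded the spread of the libraries, which the fit estimated over all 17. Of 19951 genes tested with edgeR's quasi-likelihood test, 2 passed an adjusted p of 0.05, which is 0.01%. Both were lower in the compound Tet2-/- libraries (0.01%), and 0 genes (0%) were higher. At an unadjusted p under 0.05 there were 2344 genes (11.7%), 871 of them higher (4.37%) and 1473 lower (7.38%). With only the 5 compound libraries in the edgeR fit, 505 of 18257 genes tested had such a p. The number of calls depended on the tool and on the libraries entered. DESeq2 called 335, limma voom 0, edgeR without compound Tet2-/- library 1 called 26, and edgeR on the 5 compound libraries alone called 0. Both genes were among the calls of DESeq2 and of edgeR without compound Tet2-/- library 1. A looser count takes the genes for which every compound Tet2-/- library lay on the same side of both compound Tet2+/- libraries. These numbered 3396 (17%), of which 1464 lay higher (7.34%) and 1932 lower (9.68%). With 3 libraries against 2 there are 10 ways to assign the genotypes, so an exact permutation test of 1 gene cannot give a one-sided p under 0.1. Counts of genes that do not overlap are therefore given beside these background shares and are not tests.

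Set against the Normal libraries, most of these 3396 genes had values that reach into the Normal range in both genotypes. Of the 1932 that lay lower, 369 were above every Normal library in both compound Tet2+/- libraries while the compound Tet2-/- libraries reached into the Normal range, and 157 were below every Normal library in the compound Tet2-/- libraries only. Of the 1464 that lay higher, 268 were below every Normal library in the compound Tet2+/- libraries only, and 158 were above every Normal library in the compound Tet2-/- libraries only. For 4 genes the genotypes took opposite sides of the whole Normal range, with all 3 compound Tet2-/- libraries below it and both compound Tet2+/- libraries above it. They were Xlr4a, Dmtf1, Hnrnph3 and Marf1.

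Cd22 and Xlr4a were the genes that passed. Cd22 is named as a member of the B lymphoid list, while Xlr4a is on no list, lies below the level asked of other named genes, and was singled out after its values were seen. Cd22 (ENSMUSG00000030577.13, chromosome 7, 30865402 to 30880342, GRCm38, minus strand) encodes an inhibitory receptor of B cells that binds sialic acid. It had 0.0423, 0.0287 and 0.0605 CPM in the compound Tet2-/- libraries, against 1.98 and 3.42 CPM in the compound Tet2+/- libraries. These are 1, 1 and 2 reads in the compound Tet2-/- libraries, against 61 and 161 reads in the compound Tet2+/- libraries. The compound Tet2-/- libraries were all below the Normal range of 0.696 to 5.32 CPM, within which both compound Tet2+/- libraries lay. Cd22 averaged 0.0438 ± 0.0160 CPM in compound Tet2-/- (SD, n = 3) and 2.70 ± 1.01 CPM in compound Tet2+/- (SD, n = 2), a fitted 56.8-fold lower level. The log2 fold change was -5.83 ± 0.60 (adjusted p = 0.00151, edgeR), and within the low and the high title numbers the difference in log2 CPM was -4.27 and -5.03. The call was lost when only the 5 compound libraries entered the fit (adjusted p = 0.999, edgeR) and under limma voom (adjusted p = 0.594).

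The other B cell genes named here stood at or under 0.520 CPM in all 5 leukaemias. Of 23 tested B lymphoid markers Cd22 was the 1 that passed, and Ebf1 was the only other that did not overlap. These 2 of 23 lie near the 9.68% lower over all genes tested. Ebf1, a master factor of B cells, had no read in the compound Tet2-/- libraries, against 0.0325 and 0.340 CPM in the compound Tet2+/- libraries. Pax5 had no read in the compound Tet2-/- libraries nor in compound Tet2+/- library 1, and 0.0212 CPM in compound Tet2+/- library 2. Ms4a1, a surface protein of B cells, also had no read in the compound Tet2-/- libraries, against 0.0325 and 0 CPM in the compound Tet2+/- libraries. Cd79a, part of the B cell receptor, had 0.211, 0.0574 and 0.333 CPM in the compound Tet2-/- libraries, against 0.520 and 0.319 CPM in the compound Tet2+/- libraries. The mean log2 CPM of the list was -1.76, -1.61 and -1.24 in the compound Tet2-/- libraries, against -1.40 and -0.18 in the compound Tet2+/- libraries, with -0.19 to 1.46 in the Normal libraries. Compound Tet2+/- library 2 was thus just inside the Normal range, and the other leukaemias lay below it. Variable segments of immunoglobulin genes, whose close relatives share reads, lay lower at 24 of 114 and higher at 0, with a median log2 fold change of -1.81 between the compound genotypes and -2.48 between the Normal Tet2 genotypes. None of them passed. The part of B cells in the level of Cd22 was not tested.

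Xlr4a (ENSMUSG00000079845.8, chromosome X, 73074345 to 73082478, GRCm38, minus strand) belongs to a cluster of near-identical X-linked genes first found in lymphocytes. It had 0.381, 0.0574 and 0.0302 CPM in the compound Tet2-/- libraries, against 7.935 and 5.80 CPM in the compound Tet2+/- libraries. These are 9, 2 and 1 reads in the compound Tet2-/- libraries, against 244 and 273 reads in the compound Tet2+/- libraries. The Normal libraries ran from 1.26 to 5.255 CPM, so the compound Tet2-/- libraries lay below all of them and the compound Tet2+/- libraries above all of them. Xlr4a averaged 0.156 ± 0.195 CPM in compound Tet2-/- (SD, n = 3) and 6.87 ± 1.51 CPM in compound Tet2+/- (SD, n = 2), a fitted 46.7-fold lower level. The log2 fold change was -5.55 ± 0.73 (adjusted p = 0.0155, edgeR), and within the low and the high title numbers the difference in log2 CPM was -4.17 and -5.78. The call was lost in a fit of the 5 compound libraries alone (adjusted p = 0.999), without compound Tet2-/- library 2 (0.105) or 3 (0.0875), all with edgeR, and under limma voom (adjusted p = 0.312). With a term for sex transcripts the log2 fold change was -4.89. That fit left out the libraries with neither Xist nor Y-linked transcripts, compound Tet2-/- library 2 and compound Tet2+/- library 1. Compound Tet2+/- library 2 was then the only one of its genotype.

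**Figure D2:**
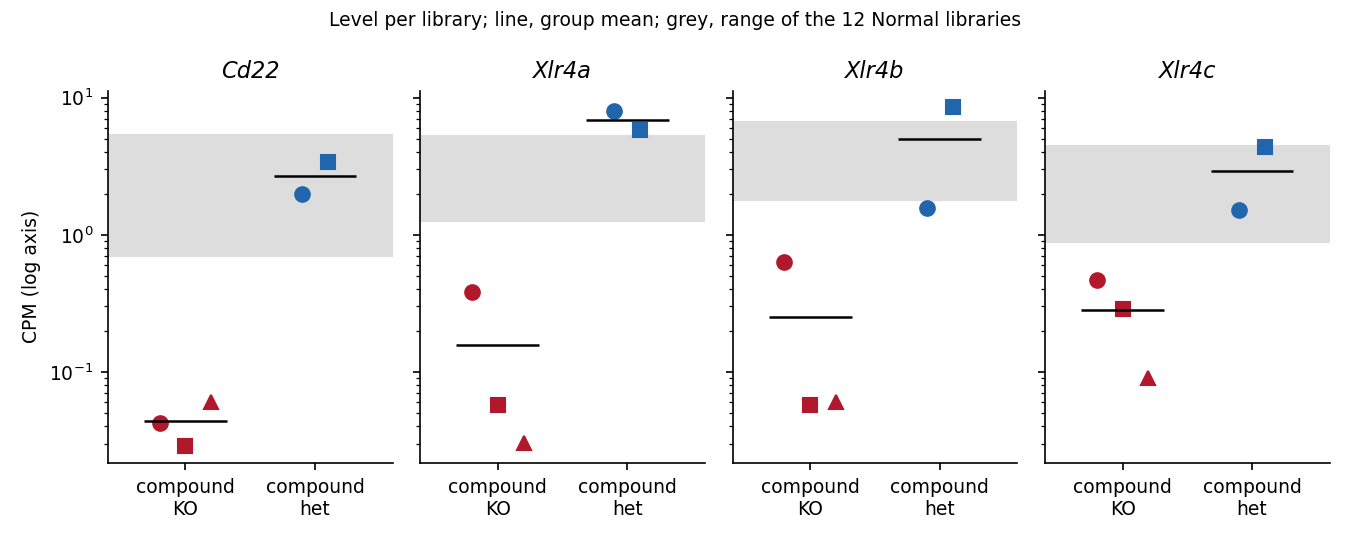
Levels (CPM, log axis) of Cd22, Xlr4a, Xlr4b and Xlr4c in each compound Tet2-/- (KO, red) and compound Tet2+/- (het, blue) library, with lines at group means and the range of the 12 Normal libraries in grey. Every compound Tet2-/- point lies below both compound Tet2+/- points in each panel, with Cd22 at 0.0287 to 0.0605 CPM in the compound Tet2-/- libraries against 1.98 and 3.42 CPM in the compound Tet2+/- libraries.

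The neighbours Xlr4b and Xlr4c, which are imprinted in mouse brain and were named after their values were seen, also lay lower in every compound Tet2-/- library without passing. Xlr4b had 0.634, 0.0574 and 0.0605 CPM in the compound Tet2-/- libraries, against 1.56 and 8.49 CPM in the compound Tet2+/- libraries (log2 fold change -4.41 ± 0.85, adjusted p = 0.139, edgeR). Xlr4c had 0.465, 0.287 and 0.0907 CPM in the compound Tet2-/- libraries, against 1.53 and 4.35 CPM in the compound Tet2+/- libraries (log2 fold change -3.41 ± 0.67, adjusted p = 0.139, edgeR). Counts of these genes cannot be fully told apart, because 975 of 1627 stretches of 100 bases of Xlr4a transcripts (59.9%) also occur in transcripts of another gene. For Xlr4b the count was 1144 of 3012 (38.0%) and for Xlr4c it was 1257 of 2420 (51.9%), against 0 of 5890 for Cd22. Whether reads that match several genes were counted is unstated. The 250 bases before each RefSeq start site (GRCm38.p6) are shown because the genes share most of this sequence and because methylated CpG is what TET2 acts on, with each CG in capitals and each sequence read 5′ to 3′ along its gene. They are chrX:73082508-73082757 (minus strand) for Xlr4a, chrX:73214083-73214332 (plus strand) for Xlr4b and chrX:73243131-73243380 (minus strand) for Xlr4c.
Xlr4a promoter: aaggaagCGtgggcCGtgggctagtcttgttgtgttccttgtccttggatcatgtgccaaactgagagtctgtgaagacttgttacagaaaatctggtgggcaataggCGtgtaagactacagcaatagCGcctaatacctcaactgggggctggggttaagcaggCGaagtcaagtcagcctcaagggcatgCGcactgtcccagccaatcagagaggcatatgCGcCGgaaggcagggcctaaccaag
Xlr4b promoter: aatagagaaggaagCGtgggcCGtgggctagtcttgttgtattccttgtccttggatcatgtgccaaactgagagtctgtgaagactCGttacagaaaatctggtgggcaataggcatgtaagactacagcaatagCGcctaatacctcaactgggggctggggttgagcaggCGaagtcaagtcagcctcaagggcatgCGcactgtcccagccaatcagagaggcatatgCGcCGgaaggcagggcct
Xlr4c promoter: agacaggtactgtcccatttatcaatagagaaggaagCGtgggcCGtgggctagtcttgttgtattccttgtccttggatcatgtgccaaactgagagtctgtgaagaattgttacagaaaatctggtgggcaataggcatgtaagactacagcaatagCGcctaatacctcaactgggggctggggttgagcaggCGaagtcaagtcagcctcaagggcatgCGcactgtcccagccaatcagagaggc

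Aligned over their shared stretch, the Xlr4a and Xlr4b promoters matched at 239 of 243 bases (98.4%), Xlr4a and Xlr4c at 216 of 220 (98.2%) and Xlr4b and Xlr4c at 225 of 227 (99.1%). The Xlr4a window holds 8 CG, the Xlr4b window 8 and the Xlr4c window 5. The Xlr4c window ends before the stretch that holds the last CG of the other windows, so the counts depend on where each window ends. The RefSeq start of Xlr4a was not found near the start of any GENCODE transcript of the gene. Over the windows of 250 bases before 32851 starts in the RefSeq table the median was 6, 43.0% held at least 8 and 55.6% at least 5. Methylation was not measured in these libraries, so the CG counts describe the sequence only.

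Besides these, the genes with the smallest p among those that separated the genotypes at a mean of at least 1 log2 CPM are given as values, since none passed. The 10 that lay higher in the compound Tet2-/- libraries had adjusted p of 0.139 to 0.169 (edgeR). Of these, Csf2rb2, the beta chain of the mouse interleukin-3 receptor, had 82.7, 44.2 and 49.8 CPM in the compound Tet2-/- libraries, against 21.2 and 18.2 CPM in the compound Tet2+/- libraries (log2 fold change 1.58 ± 0.34). All 3 compound Tet2-/- libraries lay above the Normal maximum of 36.8 CPM. Outside the 10, its close relative Csf2rb, the beta chain shared by the receptors of interleukin-3, interleukin-5 and GM-CSF, had 391, 289.8 and 251.5 CPM in the compound Tet2-/- libraries, against 201 and 123 CPM in the compound Tet2+/- libraries (log2 fold change 0.94 ± 0.25, adjusted p = 0.223, edgeR). Reads can be shared between these paralogs, so their levels are less certain.

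Hopx, a homeodomain protein that does not bind DNA, had the widest gap of the 10. It stood at 8.33, 21.99 and 26.7 CPM in the compound Tet2-/- libraries, against 2.99 and 1.66 CPM in the compound Tet2+/- libraries (log2 fold change 3.04 ± 0.60). All compound Tet2-/- libraries were above the Normal maximum of 4.86 CPM. Mgam, a maltase-glucoamylase, had 224, 391 and 448 CPM in the compound Tet2-/- libraries, against 154 and 98.2 CPM in the compound Tet2+/- libraries, with a Normal maximum of 129.9 CPM. Lamp1, a membrane protein of lysosomes, had 315, 339.9 and 441.5 CPM in the compound Tet2-/- libraries, against 207 and 137.5 CPM in the compound Tet2+/- libraries. Ldah, a hydrolase of lipid droplets, had 46.0, 66.5 and 54.4 CPM in the compound Tet2-/- libraries, against 21.1 and 24.5 CPM in the compound Tet2+/- libraries. For these genes the compound Tet2-/- libraries were all above the Normal range.

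For the remaining ones the gap was made in part by low compound Tet2+/- libraries. Selenop, a selenium carrier, had 73.4, 85.45 and 141 CPM in the compound Tet2-/- libraries, against 38.15 and 31.9 CPM in the compound Tet2+/- libraries, which lay under the Normal minimum of 58.15 CPM. Atp5j, a subunit of the mitochondrial ATP synthase, had 164, 163 and 161.5 CPM in the compound Tet2-/- libraries, against 81.7 and 73.5 CPM in the compound Tet2+/- libraries, below the Normal minimum of 111.5 CPM. Ndufa11, of complex I of the respiratory chain, had 16.95, 14.45 and 16.8 CPM in the compound Tet2-/- libraries, against 8.13 and 8.60 CPM in the compound Tet2+/- libraries, below the Normal minimum of 11.1 CPM. Slc31a1, the copper importer, followed with 41.9, 37.3 and 31.2 CPM in the compound Tet2-/- libraries, against 18.8 and 16.2 CPM in the compound Tet2+/- libraries, under the Normal minimum of 21.7 CPM. Npl, which breaks down sialic acid, had 18.0, 17.4 and 16.4 CPM in the compound Tet2-/- libraries, against 7.84 and 5.84 CPM in the compound Tet2+/- libraries. For Npl the compound Tet2-/- libraries lay near or above the top of the Normal range of 7.79 to 16.9 CPM and the compound Tet2+/- libraries near or under its lower end.

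**Figure D3:**
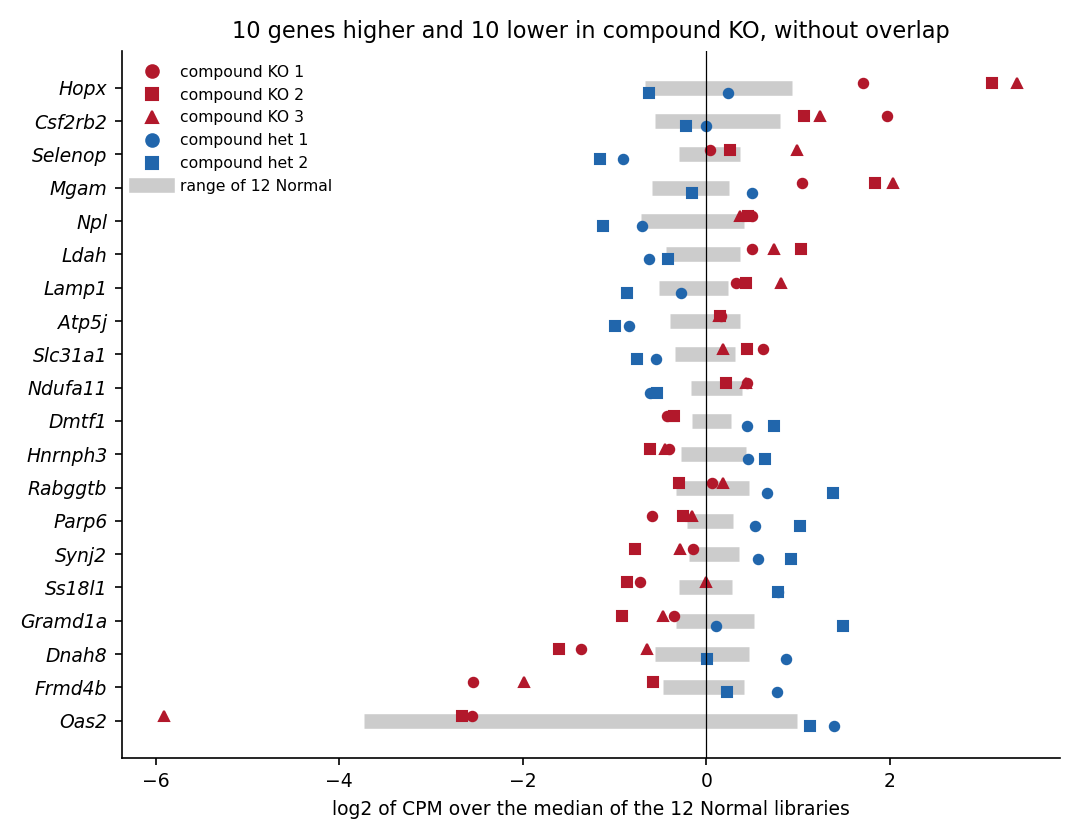
Levels of the 10 genes that lay higher and the 10 that lay lower in the compound Tet2-/- libraries with the smallest p, as log2 of CPM over the Normal median, 1 point per compound Tet2-/- (KO, red) or compound Tet2+/- (het, blue) library, with grey bars for the Normal range. The compound genotypes do not overlap for any of them, and none passed an adjusted p of 0.05.

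The 10 that lay lower had adjusted p of 0.139 to 0.175 (edgeR). Dmtf1, a transcription factor that switches on the tumour suppressor Arf, had 54.2, 57.15 and 56.7 CPM in the compound Tet2-/- libraries, against 98.8 and 121 CPM in the compound Tet2+/- libraries (log2 fold change -0.97 ± 0.17). Hnrnph3, a splicing factor, had 38.2, 33.3 and 37.3 CPM in the compound Tet2-/- libraries, against 69.6 and 79.0 CPM in the compound Tet2+/- libraries (log2 fold change -1.03 ± 0.21). The Normal libraries lay between the genotypes for both, at 65.2 to 87.9 CPM for Dmtf1 and 42.1 to 68.4 CPM for Hnrnph3. Marf1, which takes part in RNA decay and was named after its values were seen, did the same with 95.85, 92.5 and 95.2 CPM in the compound Tet2-/- libraries, against 180.3 and 134.5 CPM in the compound Tet2+/- libraries (adjusted p = 0.202, edgeR). Its Normal range was 103.9 to 133 CPM. Within the low and the high title numbers the difference of Dmtf1 was -0.87 and -1.09 (log2).

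Dnah8, a dynein heavy chain of cilia, had 50.65, 43.0 and 83.7 CPM in the compound Tet2-/- libraries, against 239.8 and 132 CPM in the compound Tet2+/- libraries (log2 fold change -1.65 ± 0.32). The compound Tet2-/- libraries were under the Normal minimum of 88.6 CPM. Oas2, an antiviral oligoadenylate synthetase, had 2.16, 2.01 and 0.212 CPM in the compound Tet2-/- libraries, against 33.3 and 27.75 CPM in the compound Tet2+/- libraries (log2 fold change -4.39 ± 1.00). Both compound Tet2+/- libraries exceeded the Normal range of 0.953 to 25.1 CPM. Parp6, a mono-ADP-ribosyltransferase, had 13.2, 16.7 and 17.8 CPM in the compound Tet2-/- libraries, against 28.8 and 40.4 CPM in the compound Tet2+/- libraries, with both compound Tet2+/- libraries above the Normal range. Rabggtb, a subunit of the enzyme that attaches lipid to Rab proteins, had 49.6, 38.8 and 54.1 CPM in the compound Tet2-/- libraries, against 75.25 and 124 CPM in the compound Tet2+/- libraries. Synj2, an inositol phosphatase, lay lower by a log2 fold change of -1.14, Gramd1a, which moves cholesterol out of the cell membrane, by -1.51, Frmd4b, a scaffold protein, by -1.97 and Ss18l1, a subunit of chromatin remodelling complexes, by -1.26.

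The lists of functional genes and of cell type markers separated the genotypes in several places, while Cd22 was the only member of any list that passed. They are described by how many members did not overlap, beside the 7.34% higher and 9.68% lower over all genes. Oxidative phosphorylation lay higher in the compound Tet2-/- libraries at 16 of 26 genes and lower at 0, with a median log2 fold change of 0.68. Sdhc, a subunit of succinate dehydrogenase, had 32.6, 40.4 and 37.65 CPM in the compound Tet2-/- libraries, against 21.3 and 18.8 CPM in the compound Tet2+/- libraries (log2 fold change 0.88 ± 0.20, adjusted p = 0.17, edgeR). Uqcrfs1, of complex III, had 48.45, 70.3 and 59.6 CPM in the compound Tet2-/- libraries, against 29.4 and 22.8 CPM in the compound Tet2+/- libraries. Cox4i1, of complex IV, had 68.4, 128 and 117 CPM in the compound Tet2-/- libraries, against 49.2 and 49.9 CPM in the compound Tet2+/- libraries. The mean log2 CPM of the list was 5.78, 6.18 and 6.03 in the compound Tet2-/- libraries, against 5.30 and 5.32 in the compound Tet2+/- libraries, which lay below every Normal library (5.47 to 6.17). These are nuclear genes, and the share of mitochondrial transcripts, given above, was higher in compound Tet2-/- libraries 2 and 3 than in the others; its part in the list was not tested.

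**Figure D4:**
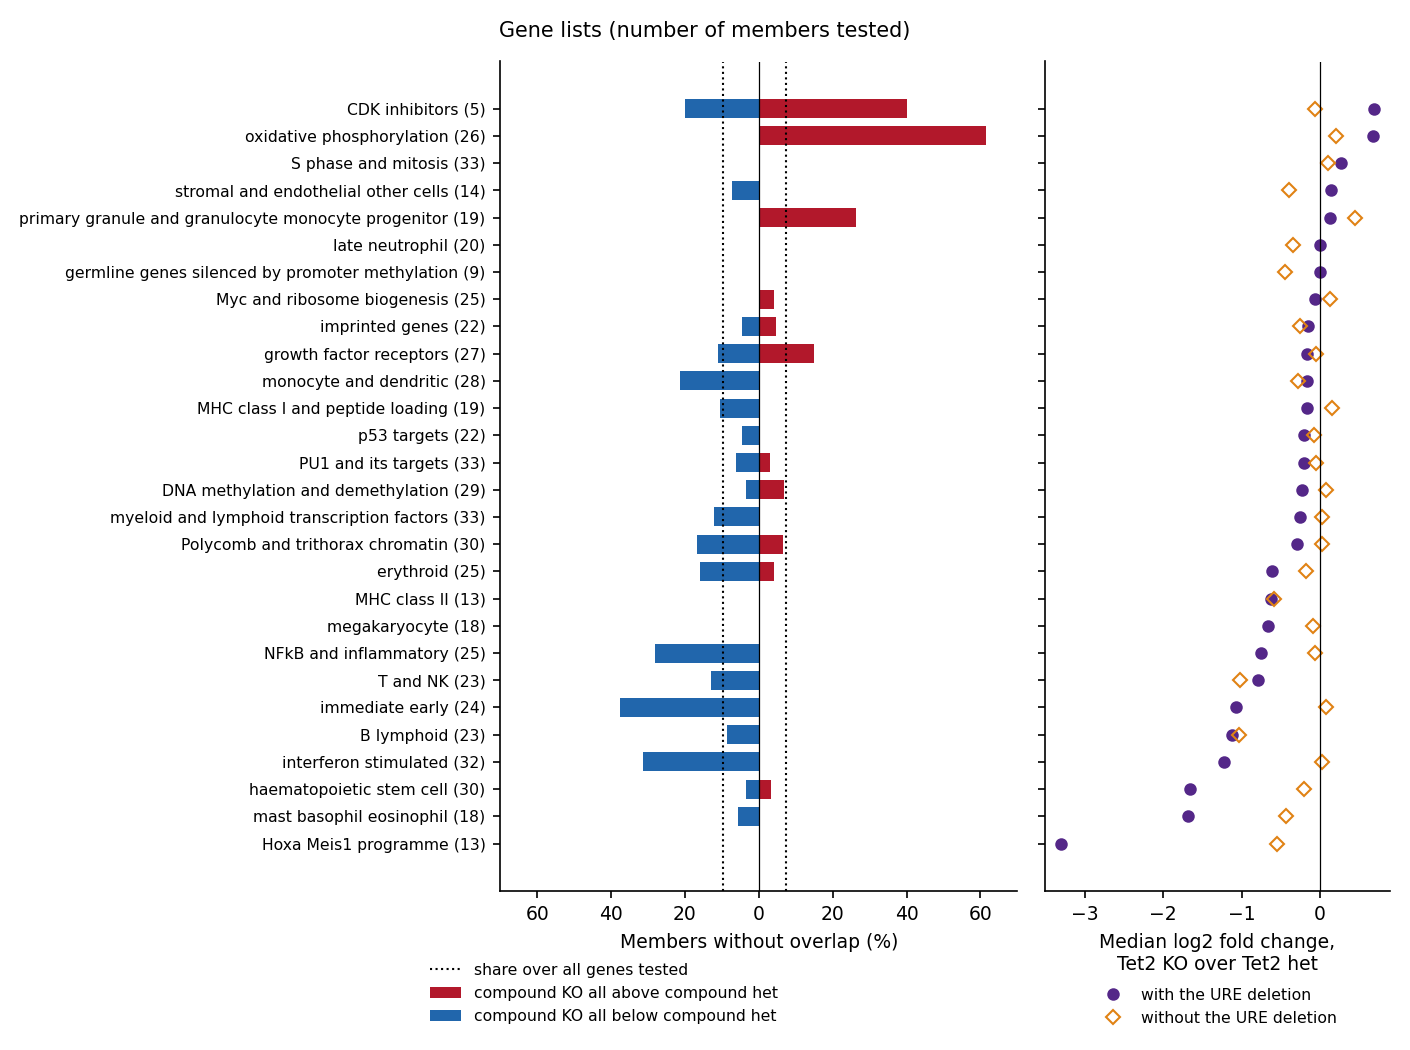
Left, for each of the 28 gene lists, the percentage of tested members that lay wholly higher (red) or wholly lower (blue) in the compound Tet2-/- libraries, with dotted lines at 7.34% higher and 9.68% lower over all genes; right, the median log2 fold change of Tet2-/- over Tet2+/- with and without the URE deletion. Oxidative phosphorylation has the longest bar on the higher side (16 of 26), and immediate early, interferon-stimulated and NF-κB genes the longest on the lower side (9 of 24, 10 of 32 and 7 of 25).

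Interferon-stimulated genes, which respond to antiviral signals, lay lower in the compound Tet2-/- libraries at 10 of 32 members and higher at 0, with a median log2 fold change of -1.23. Those 10 were Oasl1, Oas1a, Oas2, Oas3, Irf7, Irf9, Stat2, Ifi27, Rtp4 and Ifit3. Ifi27 had 7.99, 19.99 and 11.46 CPM in the compound Tet2-/- libraries, against 42.2 and 37.9 CPM in the compound Tet2+/- libraries (log2 fold change -1.60 ± 0.41, adjusted p = 0.211, edgeR). The list mean was 1.21, 3.33 and 1.52 log2 CPM in the compound Tet2-/- libraries, against 4.11 and 3.15 in the compound Tet2+/- libraries, with a Normal range of 1.64 to 4.13. Compound Tet2-/- library 2 thus lay between the compound Tet2+/- libraries, while the other two of its genotype were below every Normal library.

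Immediate early genes, the first to respond to growth signals and to handling of cells, lay lower in the compound Tet2-/- libraries at 9 of 24 members and higher at 0, with a median log2 fold change of -1.07. The 9 were Ier5, Nr4a2, Klf4, Fos, Fosb, Zfp36, Egr2, Egr3 and Dusp1. Fos had 73.0, 55.8 and 86.1 CPM in the compound Tet2-/- libraries, against 108 and 428 CPM in the compound Tet2+/- libraries. Klf4, a monocyte factor as well, had 3.26, 2.41 and 8.44 CPM in the compound Tet2-/- libraries, against 12.3 and 22.02 CPM in the compound Tet2+/- libraries. Nr4a2, a nuclear receptor, had 1.48, 1.69 and 2.45 CPM in the compound Tet2-/- libraries, against 2.67 and 8.64 CPM in the compound Tet2+/- libraries. The list means of 3.74, 3.11 and 3.83 log2 CPM in the compound Tet2-/- libraries, against 4.16 and 5.16 in the compound Tet2+/- libraries, all lie within the wide Normal range of 2.55 to 6.58. NF-κB and inflammatory genes lay lower at 7 of 25 and higher at 0 (median -0.75). Of these, the chemokine gene Ccl4 had 0.761, 0.660 and 1.09 CPM in the compound Tet2-/- libraries, against 1.79 and 14.95 CPM in the compound Tet2+/- libraries.

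For stem cell genes, 1 library set the size of the medians. The haematopoietic stem cell list had a median log2 fold change of -1.66 over 30 genes, yet 1 lay higher and 1 lower with no overlap. Its mean was 1.03, 0.22 and 0.17 log2 CPM in the compound Tet2-/- libraries, against -0.38 and 2.99 in the compound Tet2+/- libraries, with 2.01 to 3.55 in the Normal libraries. The Hoxa and Meis1 programme, which maintains stem cells and many leukaemias, had a median of -3.31 over 13 genes with no member that separated the genotypes. Its means were 0.34, -0.52 and -0.52 in the compound Tet2-/- libraries, against -0.65 and 2.09 in the compound Tet2+/- libraries, with 0.96 to 2.45 in the Normal libraries. Compound Tet2+/- library 2 alone was within the Normal range of both lists, and the other four leukaemias lay under it. Trpc6, a calcium channel gene on the stem cell list, had no read in the compound Tet2-/- libraries, against 1 and 159 reads in the compound Tet2+/- libraries. The 159 reads were all in compound Tet2+/- library 2, so that library alone sets its difference. MHC class II genes, which present antigen, had means of 0.49, 0.14 and 0.35 log2 CPM in the compound Tet2-/- libraries, against 0 and 2.59 in the compound Tet2+/- libraries, with 0 of 13 genes separating the genotypes.

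**Figure D5:**
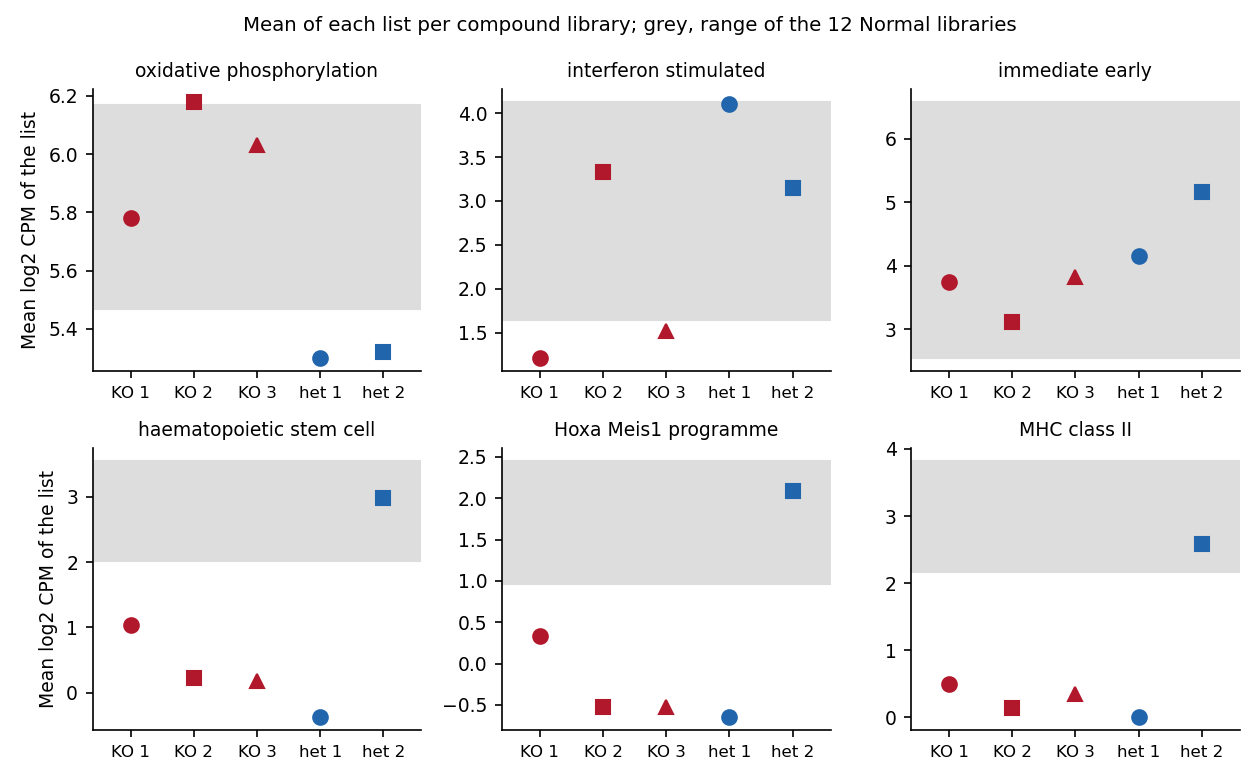
Mean log2 CPM of 6 gene lists in each compound Tet2-/- (KO, red) and compound Tet2+/- (het, blue) library, with the range of the 12 Normal libraries in grey. Oxidative phosphorylation separates the genotypes (5.78 to 6.18 in the compound Tet2-/- libraries against 5.30 and 5.32 in the compound Tet2+/- libraries), whereas for stem cell, Hoxa and Meis1 and MHC class II genes compound Tet2+/- library 2 stands apart from the other four.

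The lists of mature and progenitor cells are small and are given beside the shares over all genes, 7.34% higher and 9.68% lower. Those of early granulocytes and of monocytes lay farthest above these shares, while those of erythroid and of T and NK cells lay nearer to them. Of 19 primary granule and granulocyte-monocyte progenitor genes 5 lay higher in the compound Tet2-/- libraries (Mpo, Prtn3, Ctsg, Srgn and Rgcc) and 0 lower, with a median of 0.13. Srgn, the proteoglycan that packs granules, had 957, 1426 and 1063 CPM in the compound Tet2-/- libraries, against 540.1 and 318 CPM in the compound Tet2+/- libraries. Late neutrophil genes had 0 of 20 in each direction. Monocyte and dendritic genes lay lower at 6 of 28 and higher at 0. Erythroid genes lay lower at 4 of 25 and higher at 1, T and NK genes lower at 3 of 23, mast cell, basophil and eosinophil genes lower at 1 of 18 and stromal and endothelial genes lower at 1 of 14. Megakaryocyte genes had 0 of 18.

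Among regulators, chromatin genes of the Polycomb and trithorax groups lay lower at 5 of 30 and higher at 2. Kmt2a, the trithorax methyltransferase that is rearranged in human leukaemia, had 169, 176 and 209 CPM in the compound Tet2-/- libraries, against 260.0 and 299 CPM in the compound Tet2+/- libraries. Rbbp4, a histone-binding subunit of Polycomb and other complexes, had 71.7, 55.9 and 80.1 CPM in the compound Tet2-/- libraries, against 38.7 and 50.5 CPM in the compound Tet2+/- libraries. Inhibitors of cyclin-dependent kinases, which hold back the cell cycle, had 2 of 5 genes higher and 1 lower. Cdkn2c had 35.6, 21.99 and 40.9 CPM in the compound Tet2-/- libraries, against 15.4 and 14.5 CPM in the compound Tet2+/- libraries. Cdkn1c had 2.03, 3.99 and 5.05 CPM in the compound Tet2-/- libraries, against 1.72 and 0.828 CPM in the compound Tet2+/- libraries. The 33 genes of S phase and mitosis did not separate the genotypes (0 in each direction, median 0.27). Myeloid and lymphoid transcription factors lay lower at 4 of 33, growth factor receptors higher at 4 of 27 and lower at 3, and PU.1 with its targets higher at 1 of 33 and lower at 2. MHC class I genes lay lower at 2 of 19, p53 targets lower at 1 of 22, Myc and ribosome biogenesis genes higher at 1 of 25, and imprinted genes higher at 1 of 22 and lower at 1. Germline genes that promoter methylation silences had 0 of 9.

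Several classes of RNA lay mostly to the same side. Transcripts from within introns lay lower in the compound Tet2-/- libraries at 40 of 127 and higher at 0, with a median log2 fold change of -0.65. Unspliced models that await experimental support (TEC) lay lower at 221 of 983 and higher at 20, antisense RNAs lower at 156 of 923 and higher at 21, and small nucleolar RNAs lower at 39 of 218 and higher at 1. Sums of a class, given next, are counts per 1 M of all gene counts, without the TMM scaling used for single genes. For small nucleolar RNAs compound Tet2+/- library 2 alone stood apart, since they summed to 205.1, 187 and 227 CPM in the compound Tet2-/- libraries, against 212.5 and 707 CPM in the compound Tet2+/- libraries, with a Normal maximum of 285.5 CPM. Long intergenic RNAs summed to 6541, 5513 and 7965 CPM in the compound Tet2-/- libraries, against 12990 and 15360 CPM in the compound Tet2+/- libraries, which both exceeded the Normal range of 3695 to 9570 CPM. Processed pseudogenes, copies of spliced RNA, went the other way, with 421 of 1950 higher and 88 lower (median 0.41). Replication-dependent histone genes lay higher at 8 of 62 and lower at 2 (median 0.89). Their sums overlapped between the genotypes, with 2622, 888 and 2081 CPM in the compound Tet2-/- libraries, against 784 and 1559 CPM in the compound Tet2+/- libraries. The TMM factor, which scales each library, was 1.006, 0.912 and 0.881 in the compound Tet2-/- libraries, against 1.038 and 1.251 in the compound Tet2+/- libraries, and its part in these shares was not tested. Antisense counts are less certain, since the labels do not say whether the counting used strand.

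The same step in Tet2 dose without the URE deletion was measured in the Normal libraries, which share no library with the compound comparison. Between URE+/+;Tet2-/- and URE+/+;Tet2+/-, 0 of 19951 genes passed with edgeR (0%), 458 had an unadjusted p under 0.05 (2.3%) and 2129 did not overlap (10.7%). The last share cannot be set beside the 17% of the compound comparison. Groups of fewer libraries separate more often by assignment alone, and the compound comparison has fewer. DESeq2 called 15 and limma voom 5, all lower in URE+/+;Tet2-/-. With only the groups compared in the edgeR fit, 733 of 17136 genes had an unadjusted p under 0.05. Between the compound genotypes 505 of 18257 did. Which comparison had more such genes thus depended on the libraries behind the spread. Cd22 averaged 1.71 ± 0.545 CPM in URE+/+;Tet2-/- and 3.43 ± 1.67 CPM in URE+/+;Tet2+/- (SD, n = 3 each), a log2 fold change of -1.01 ± 0.43 (unadjusted p = 0.0311, adjusted p = 1, edgeR). Xlr4a averaged 1.96 ± 0.813 CPM in URE+/+;Tet2-/- and 2.21 ± 0.930 CPM in URE+/+;Tet2+/- (SD, n = 3 each), a log2 fold change of -0.18 ± 0.55. Hopx had a log2 fold change of -0.51 and Csf2rb2 of -0.32 in these libraries, against the positive values given above. Oxidative phosphorylation had a median of 0.20, interferon-stimulated genes 0.03 and immediate early genes 0.08.

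The difference between both steps in Tet2 dose was tested directly. It passed for 0 genes with edgeR (0%), with 921 at an unadjusted p under 0.05 (4.62%), while DESeq2 called 10 and limma voom 0. For Cd22 the difference was -4.82 ± 0.73 in log2 (adjusted p = 0.179, edgeR) and for Xlr4a it was -5.37 ± 0.90 (adjusted p = 0.271, edgeR). The call for these genes depended on the libraries and the tool. Without compound Tet2+/- library 1, which leaves 1 library in its group, the difference in log2 was -5.15 for Cd22 and -5.13 for Xlr4a. Without compound Tet2-/- library 1 it passed for Xlr4a (adjusted p = 0.00755, edgeR), and both genes were among the calls of DESeq2. Title numbers 8 to 17 alone, a choice made after seeing the data, also leave 1 compound Tet2+/- library, so no call is given. Of the RNA classes, intronic transcripts had a median of -0.53, TEC models of -0.47 and antisense RNAs of -0.34 between the Normal Tet2 genotypes, in the same direction as in the leukaemias.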

How the data were processed

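Sorted bone marrow cells gave polyA RNA libraries by a low-input method, per the labels' protocols. The authors deposited raw counts per gene, aligned with STAR to GRCm38 per the submitters' processing notes; the counting tool, strand setting and annotation are not given in the sources used here. Features named enh were left out of the tests. Symbols and coordinates are from GENCODE vM21, and promoter sequences from RefSeq (GRCm38.p6). Counts over the 47643 genes summed to 21.1 to 38.3 M per library (median 32.2 M). The 19951 genes kept by filterByExpr (minimum count 10, minimum total 15) were tested with edgeR 4.0.16 in R 4.3.3 (quasi-likelihood F test, robust spread, TMM scaling, 1 mean for each of 6 genotypes over all 17 libraries). P-values are 2-sided with a threshold of 0.05 after Benjamini-Hochberg adjustment over all genes, separately for the 3 comparisons. The SE of a log2 fold change is its size over the square root of F. Alternatives used DESeq2 1.42.0, limma 3.58.1, other scaling, filters, covariates and sets of libraries. Log2 CPM used a prior count of 2. The code was tested on simulated data.

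Named genes were Spi1, Tet2, the TET and DNMT genes, the 10 genes in each direction that had the smallest p, did not overlap and averaged 1 log2 CPM or more, and members of the 28 gene lists with the smallest p; further list members are given as examples chosen after their values were seen, and genes outside these rules are said to be. The genes, lists and comparisons were chosen with earlier results of these data known. Counting error is small at this depth except for genes of a few reads, and the reads are given for only some of these. Xlr4b had 15, 2 and 2 reads and Xlr4c 11, 10 and 3 reads in the compound Tet2-/- libraries. The levels of Ebf1, Pax5, Ms4a1 and Cd79a also rest on few reads.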

Additional observations from a re-analysis of the deposited data

Results flagged for a closer look

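Besides genes, the deposited counts hold features whose names end in or consist of enh, which none of the comparisons above uses and whose coordinates and meaning are not given in the sources used here. Their counts came to 3.43%, 2.79% and 3.01% of the gene counts in compound Tet2-/- libraries 1, 2 and 3, against 5.10% and 6.06% in compound Tet2+/- libraries 1 and 2. Compound Tet2+/- library 2, at 6.06%, is above the 2.70% to 5.72% of the 12 Normal libraries, which is why it is listed here. The genotypes do not overlap in this share. The Normal Tet2 genotypes did not overlap either, with 2.96%, 3.01% and 3.98% in URE+/+;Tet2-/- and 4.27%, 5.72% and 4.45% in URE+/+;Tet2+/-. The same compound Tet2+/- library had the highest sum of long intergenic RNAs of all 17 libraries (15360 CPM, without TMM scaling). It also had the highest TMM factor (1.251), whose part in the share was not tested. Its Xist level was the highest of all 17 libraries too, at 3540 CPM, against 3.28 CPM in compound Tet2+/- library 1. The part of Xist in the sum was not tested.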

How the results depend on the processing

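Between the compound genotypes the count of 2 genes was the same under DESeq2 size factors, with no filter, without robust spread and with chromosome 2 left out. It was also the same when Normal libraries were left out 1 at a time. It was 335 with DESeq2, 0 with limma voom, 0 with only the groups compared, 14 with a term for title number range, 406 with a term for sex, 10 with a term for the chromosome 2 level and 4861 in only the title numbers 8 to 17, an alternative chosen after seeing the data. Leaving out 1 library gave 1 to 1015 (26 without compound Tet2-/- library 1, 1 without library 2 or 3, 1015 without compound Tet2+/- library 1, 63 without library 2). Cd22 and Xlr4a were both called wherever at least 2 genes were. Between the Normal Tet2 genotypes, 0 genes became 15 with DESeq2 and 5 with limma voom. For the difference of both, 0 became 10 with DESeq2, 23 with a term for sex, 1855 in title numbers 8 to 17 and 0 to 101 without 1 library (2 without compound Tet2-/- library 1, 101 and 7 without compound Tet2+/- library 1 and 2). With the title number term, Dmtf1, Atp5j, Hnrnph3 and Ldah passed as well. Log2 fold changes that turned sign were, under limma voom, Anxa1 -0.59, Spi1 -1.18, Tet1 0.09, Dnmt1 -0.21 and the Tet2 interaction 0.01; with the title number term, Spi1 -0.11; with the sex term, Tex14 0.62, Dnmt3a 0.01, Tet3 0.07 and the Tet2 interaction 0.25; with the chromosome 2 term, Spi1 -0.05 and Tet1 0.79; in title numbers 8 to 17, Tex14 1.36, Ccnb1 -0.01, Anxa1 -1.68, Spi1 -1.80, Dnmt1 -0.51 and the Tet2 interaction 0.29. Without 1 library the log2 fold change ran from -1.49 to 1.01 for Spi1, -1.17 to 3 for Anxa1, -0.36 to 0.46 for Dnmt1, -3.94 to 0.91 for Tex14, -1.88 to 1.44 for Dnmt3b, -1.17 to 2.47 for Tet1, -0.44 to 0.08 for Tet3, -0.45 to 0.12 for the Tet2 interaction and -0.56 to 0.23 for Xlr4a between the Normal Tet2 genotypes. Some genes for which compound Tet2+/- library 2 stood above the other 4 leukaemias turned sign, or reached 0, without it: the ranges were -6.06 to 0.37 for H2-Ob, -7.74 to 0.37 for Mycn, -7.98 to 1.90 for Emcn, -4.52 to 0.03 for Cd74, -7.41 to 1.91 for Hoxa10, -5.98 to 3.6 for Siglech, -4.69 to 1.15 for Sox4, -4.65 to 2.69 for Il6, -6.02 to 0.00 for Pdgfb, -7.42 to 3.25 for Ear6, -6.99 to 1.86 for Zfp57, -7.99 to 4.26 for Xlr3a, -2.15 to 0.20 for Mcts2, -1.64 to 0.07 for Psrc1, -1.56 to 0.56 for Gnl3 and -1.25 to 0.46 for Sesn1. Other such genes kept their sign, among them Trpc6 (-9.73 to -3.14) and Ccl4 (-4.14 to -1.07). Over 91 single-gene results and 28 alternatives, 2285 values kept direction and side of the threshold, 186 newly passed, 6 no longer passed and 46 turned sign. Many of the 186 come from fits that leave 1 compound Tet2+/- library. Except where fewer libraries entered a fit, the cause was not tested. No paired analysis was possible because each number in the titles is used by 1 library only. Cd22 and Xlr4a rest on 1 to 9 reads in each compound Tet2-/- library, where counting error is large.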

Other observations

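Compound Tet2+/- library 1 had values of its own that follow neither genotype, chosen here after they were seen. Kdm6a, an X-linked demethylase of histone H3 that escapes X inactivation, had 110.1, 45.7 and 99.1 CPM in the compound Tet2-/- libraries, against 0.683 and 142 CPM in compound Tet2+/- libraries 1 and 2, with 68.3 to 125 CPM in the Normal libraries. The 2 libraries with neither Xist nor Y-linked transcripts, compound Tet2-/- library 2 and compound Tet2+/- library 1, were the lowest of all 17. In the same compound Tet2+/- library, Bcl11b, a T cell transcription factor, had 132 reads, against 0, 0 and 1 in the compound Tet2-/- libraries and 2 in compound Tet2+/- library 2. Tex14, a gene of germ cell bridges, had 0.465, 2.72 and 2.75 CPM in the compound Tet2-/- libraries, against 31.1 CPM in compound Tet2+/- library 1 and 1.06 CPM in library 2, with a Normal maximum of 2.08 CPM.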
